A study of Mus musculus with 6 samples.

Results

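10 genes of the antioxidant system and its regulator NRF2 were followed in sorted MuSCs (muscle stem cells, which reside in skeletal muscle and repair it) of mice with and without a deletion in Taf4, the gene of the TFIID subunit TAF4A. The genes were taken by symbol from a single table of normalized counts, from a list of names drawn up with earlier results of these data known. Of the 10 symbols, 9 had a row among the 22081 genes of the table, and all 9 passed the filter on low values. Slc7a11, the cystine importer of the list, had no row, so its RNA level was not analysed and only its promoter is described. The libraries labelled Control (control) and Taf4asKO were 3 each, with WT and Taf4a-KO in their titles, numbered 1 to 3 within each group, all of total RNA from freshly isolated cells of C57BL/6 mice. Taf4asKO mice carried Taf4a alleles in which loxP sites flank a pair of exons, and a tamoxifen-inducible Cre expressed from Pax7, and were given tamoxifen as adults. By the study's description, controls were littermates with the same floxed alleles, and either lacked the Cre or carried it; which control genotype each library came from, whether those mice had tamoxifen, and the sex of each mouse are not given in the sources used here. Because the Cre is active only in cells that express Pax7, the deletion is limited to that lineage, and cells that escaped recombination would be sorted with the rest. Cells were sorted without SCA1, CD45 and CD31 and with Integrin-a7, or by a Pax7 reporter.

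NRF2, the product of Nfe2l2, is a transcription factor that KEAP1 holds in the cytoplasm and passes to a ubiquitin ligase for degradation. When oxidants or electrophiles modify KEAP1, NRF2 escapes, pairs with a small MAF protein and binds antioxidant response elements (AREs) near genes for glutathione synthesis, thioredoxin reduction, quinone and heme breakdown and iron storage. NRF2 is controlled largely at the level of the protein, which RNA-seq does not measure. In muscle stem cells, a low level of reactive oxygen species is a known feature of the quiescent state.

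The proximal promoters are shown first, because they differ among the genes in whether they hold the sequence that NRF2 is known to bind. Windows from 250 bases before to 50 bases after each start were taken from RefSeq (GRCm38.p6), which matched 8 of the 10 genes in 10 windows, with several starts for Txnrd1. Hmox1 and Gclc had no window. Each was searched on both strands for the ARE core in its usual spellings, TGACNNNGC and TGAGNNNGC, where N is any base. The first was found in 12.4% of all 32851 windows, the second in 17.6%, and either in 27.8%. TGAGNNNGC overlaps the AP-1 motif TGAGTCA. A match was present in 5 of the 10 windows, each of a different gene. It is printed below in capitals with 10 bases on each side, in the 5′ to 3′ direction of the gene, and a match on the other strand therefore reads as the reverse complement. Position is that of the first capital, counted from 1 at the start and backwards from -1 before it, so that 1 of the Srxn1 matches lies downstream of the start.
Nfe2l2 (-240): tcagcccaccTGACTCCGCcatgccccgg
Srxn1 (-158, other strand): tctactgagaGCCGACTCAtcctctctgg
Srxn1 (-45): aaattcacccTGAGTCAGCggccgggcgc
Srxn1 (29, other strand): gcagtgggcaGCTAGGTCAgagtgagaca
Gclm (-134, other strand): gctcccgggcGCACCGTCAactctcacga
Txnrd1, middle of the 3 starts (-92, other strand): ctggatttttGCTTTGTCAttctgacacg
Slc7a11 (-97, other strand): taatgttggcGCTTTCTCAagctggagtt
Srxn1 held 3 matches and each of the other genes 1. The Srxn1 match at -45 contains TGAGTCA.

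The windows of Nqo1 (chr8:107403156-107403455, minus strand) and Gpx3 (chr11:54902604-54902903, plus strand) are given whole, since these genes rose in Taf4asKO MuSCs and neither window held an ARE core. That says only that these letters are not within these windows. Capitals mark CCAAT, the NF-Y box, which read here on the other strand as ATTGG and occurred in 37.4% of all windows.
Nqo1: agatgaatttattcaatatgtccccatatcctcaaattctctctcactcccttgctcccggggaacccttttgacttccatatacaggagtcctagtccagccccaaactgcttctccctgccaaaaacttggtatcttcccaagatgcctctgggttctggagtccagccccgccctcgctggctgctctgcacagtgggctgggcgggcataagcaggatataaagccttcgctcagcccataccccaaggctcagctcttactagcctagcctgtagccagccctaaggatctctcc
Gpx3: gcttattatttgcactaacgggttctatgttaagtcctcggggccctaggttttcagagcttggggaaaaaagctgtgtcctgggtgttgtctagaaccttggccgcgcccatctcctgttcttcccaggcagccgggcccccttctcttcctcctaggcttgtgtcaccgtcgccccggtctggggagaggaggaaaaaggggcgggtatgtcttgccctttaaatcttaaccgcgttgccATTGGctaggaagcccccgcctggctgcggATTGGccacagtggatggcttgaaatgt
Gpx3 held 2 such boxes, at -8 and 23. The GC-rich Sp box GGGCGG, found in 35.7% of all windows, was present in both, 2 times in Nqo1 and 1 time in Gpx3. The Nfe2l2 window (chr2:75704614-75704913, minus strand) held 3 Sp boxes beside its ARE core, and the Keap1 window 2 Sp boxes and neither an ARE core nor CCAAT. A match is a description of letters; binding was not measured.

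Values are the authors' normalized counts, reads per gene divided by a size factor of the library and rounded to whole numbers. They summed to 12338676 to 14551732 per library, for an estimated 10.6 to 17.6 M reads (M, 1e6 reads). Genes with a mean of at least 5 (18562) were tested with limma on log2(value + 1), two-sided, with Benjamini-Hochberg adjustment over all of them, and the threshold for a call was an adjusted p under 0.05 together with a change of 1.3-fold or more, up or down. Fold changes are Taf4asKO over control, given with the SE, and p-values measure the spread between these libraries, since the study calls its replicates biological and the sources used here do not tie each library to a separate mouse. Taf4 itself had 613, 534 and 478 normalized counts in the control libraries and 631, 565 and 574 in Taf4asKO (log2 fold change 0.13 ± 0.12, adjusted p = 0.524), so the total of the gene did not separate the labels. The deletion removes a pair of exons, and counts over the whole gene need not show it. The study reports that Taf4a transcripts, by RT-qPCR, and the protein, by western blot, were almost absent from Taf4asKO MuSCs. All 10 MuSC markers were present in every library, and their sum was 48519 to 51083 in control and 44875 to 47095 in Taf4asKO.

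4 of the 9 genes were higher in Taf4asKO MuSCs, which were Gclc, Nqo1, Gpx3 and Nfe2l2, and 0 were lower. Over all genes tested, 5.93% were called higher and 6.71% lower. The increases ranged from 1.45-fold for Nfe2l2 to 2.19-fold for Nqo1. Keap1, Gclm and Txnrd1 had log2 fold changes of 0.10, -0.09 and -0.10, and Hmox1 and Srxn1 of 0.75 and 0.43, none past the threshold. The median over the 9 genes was 0.53, and that over all genes 0.004. In 5 genes, the 4 called and Hmox1, all 3 Taf4asKO libraries lay above all 3 control libraries, a pattern shown by 16.6% of all genes in this direction. The opposite pattern was seen in 0 of the 9 genes and in 16.4% of all genes. When the replicate number was blocked, the same 4 genes were called, against 9.09% of all genes called higher and 8.98% lower. In sorted bulk samples, a change in the share of cells of a type and a change in RNA per cell cannot be told apart. The summed Schwann cell markers were also higher in every Taf4asKO library, at 13638 to 15512 against 7619 to 11903 in control.

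**Figure D1:**
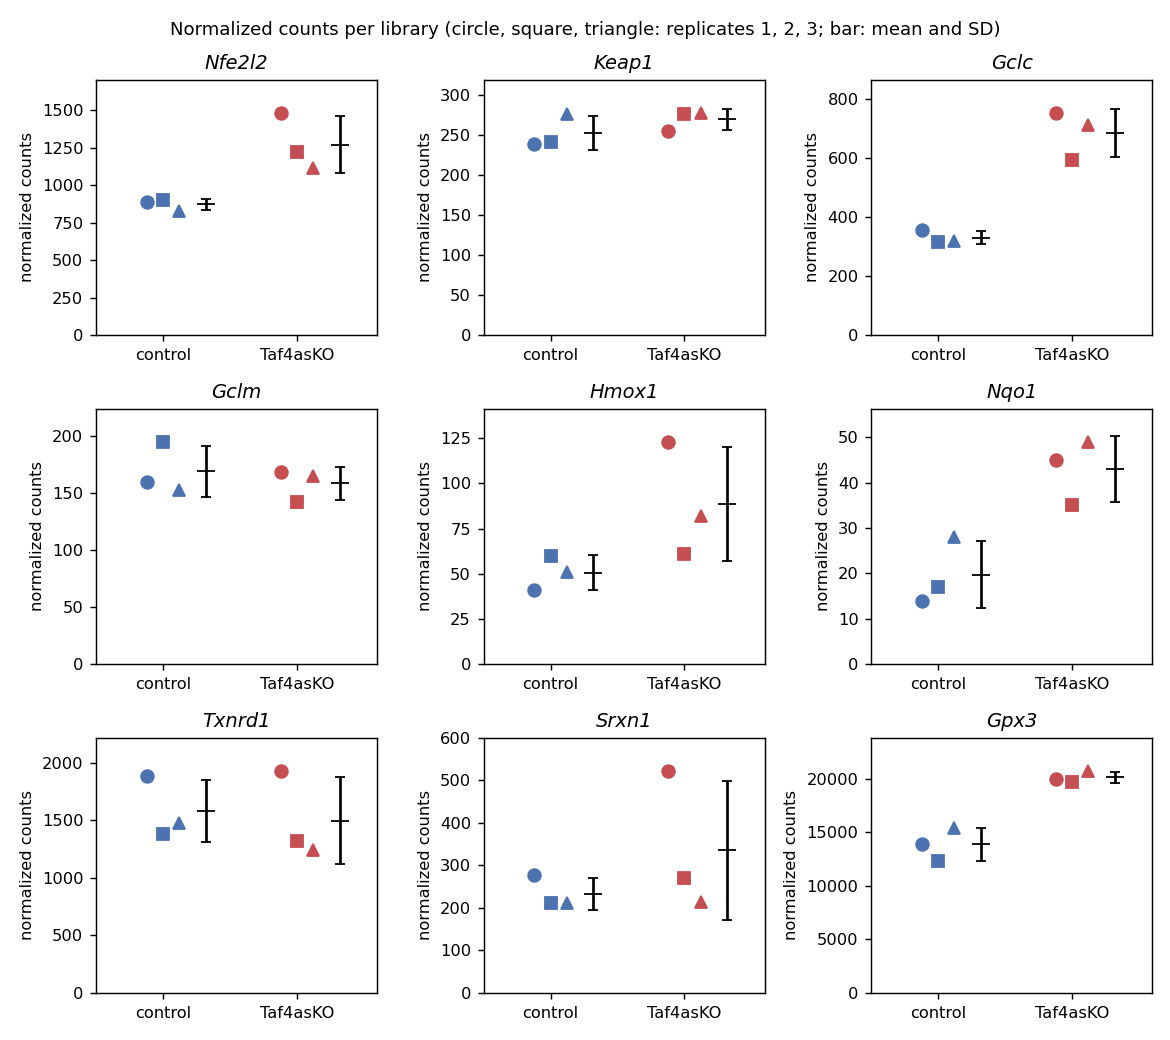
Normalized counts (y axis, from 0) of the 9 genes in each control and Taf4asKO library, with 1 symbol per replicate number and the mean and SD beside each group. Gclc, Gpx3, Nfe2l2, Nqo1 and Hmox1 show no overlap between the groups, while the libraries numbered 1 are the highest of their group for Srxn1 and Txnrd1.

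Of the regulators, Nfe2l2 (ENSMUSG00000015839, mm10 chr2:75675513-75704641, minus strand) had 889, 902 and 829 normalized counts in the control libraries and 1483, 1221 and 1114 in Taf4asKO. All Taf4asKO libraries were above all controls, and the Taf4asKO libraries were spread more widely (SD 190 against 38.9). The log2 fold change was 0.53 ± 0.12, with an adjusted p of 0.0172. The call was lost without Taf4asKO replicate 1 (0.42, adjusted p = 0.0615) and without Taf4asKO replicate 2 (0.56, adjusted p = 0.0671). Keap1, the adaptor that marks NRF2 for degradation (ENSMUSG00000003308, chr9:21229730-21239361, minus strand), had 239, 242 and 277 in control and 255, 277 and 278 in Taf4asKO. Its groups overlapped, and the difference of 0.10 had a 95% interval from -0.18 to 0.38 (adjusted p = 0.657). Exons of Keap1 overlap those of Gm16754 on the opposite strand, and strand use in counting is not given in the sources used here, which leaves its reads uncertain.

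The ratio of Nfe2l2 to Keap1 within a library was 3.72, 3.73 and 2.99 in control and 5.82, 4.41 and 4.01 in Taf4asKO. Every Taf4asKO ratio was above every control ratio. This ratio and those below were chosen after the values were seen and are given without a test.

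Glutathione synthesis begins with glutamate-cysteine ligase, whose catalytic subunit is encoded by Gclc and whose modifier subunit by Gclm. Gclc rose and Gclm did not pass the threshold. Gclc (ENSMUSG00000032350, chr9:77754535-77794485, plus strand) had 358, 315 and 321 normalized counts in the control libraries and 754, 596 and 712 in Taf4asKO, with no overlap between the groups. Its log2 fold change was 1.05 ± 0.12 (adjusted p = 0.000901), and it was the only 1 of the 4 called genes that stayed past the threshold in all 18 alternatives run, with values from 0.97 to 1.14. Gclm (ENSMUSG00000028124, chr3:122245557-122270732, plus strand) had 160, 195 and 153 in control and 169, 142 and 165 in Taf4asKO. These overlapped, at -0.09 ± 0.16 with a 95% interval from -0.44 to 0.26 (adjusted p = 0.756). Exons of Gclm overlap those of Gm17494 on the opposite strand and of Gm6061 on the same strand, so reads there could be lost or shared.

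The ratio of Gclc to Gclm was 2.24, 1.62 and 2.10 in the control libraries. In the Taf4asKO libraries it was 4.46, 4.20 and 4.32, again above every control. The difference of the log2 ratio was 1.14, and between 0.997 and 1.23 when any 1 library was left out.

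**Figure D2:**
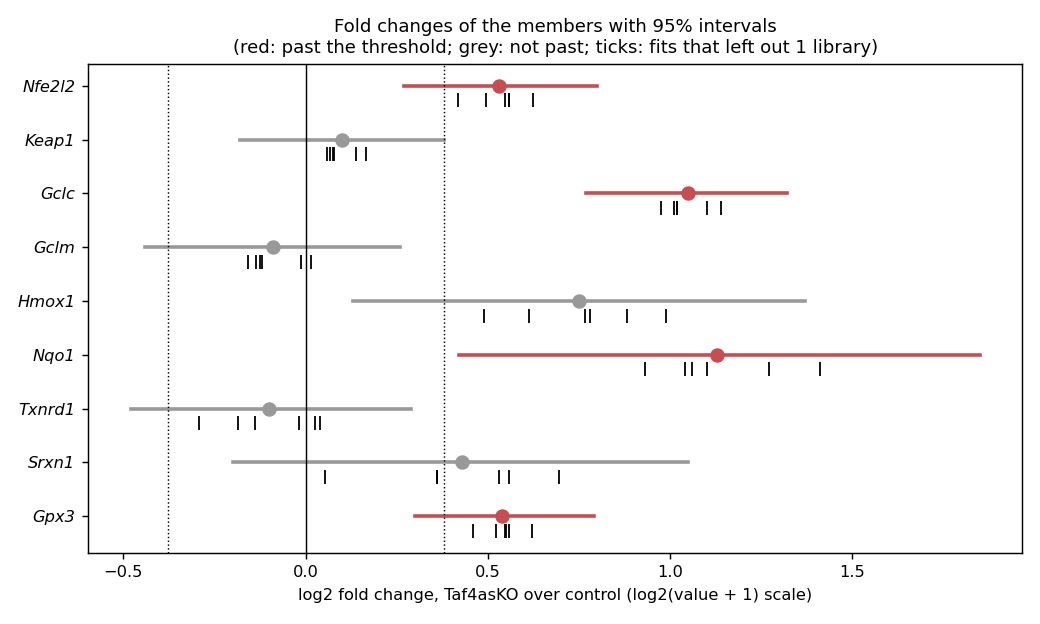
Log2 fold change of Taf4asKO over control (x axis) for each of the 9 genes, with the limma 95% interval as a line, the 6 fits that left out 1 library as ticks, and dotted lines at a fold of 1.3 in either direction. The 4 called genes are red and lie to the right of 0 under every fit, whereas the ticks of Gclm and Txnrd1 fall on both sides of 0.

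Hmox1 and Nqo1 are widely used readouts of NRF2. Hmox1 (ENSMUSG00000005413, chr8:75093621-75100589, plus strand), the inducible heme oxygenase, had 41, 60 and 51 normalized counts in the control libraries and 123, 61 and 82 in Taf4asKO. The groups touched without overlapping, with control replicate 2 and Taf4asKO replicate 2 only 1 count apart. The log2 fold change was 0.75 ± 0.28 with a 95% interval from 0.13 to 1.37, and it missed the threshold at an adjusted p of 0.107. Nqo1 (ENSMUSG00000003849, chr8:107388225-107403206, minus strand), a quinone reductase, had 14, 17 and 28 in control and 45, 35 and 49 in Taf4asKO. Every Taf4asKO library was above every control. It rose by 1.13 ± 0.32 on the log2 scale, with an adjusted p of 0.045. It had the lowest level of the 9 genes in control, with an estimated 12 reads or more per library, and its adjusted p was above 0.05 under each of the 3 other scalings tried, at 0.052 with total counts, 0.0563 with the upper quartile and 0.0519 with totals that left out ribosomal protein, mitochondrial and the 100 top genes. Leaving out any 1 library other than control replicate 3 also ended the call, with adjusted p from 0.0645 to 0.175.

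Of the enzymes that act on thiols and peroxides, Gpx3 (ENSMUSG00000018339, chr11:54902772-54910377, plus strand), the secreted selenium-dependent glutathione peroxidase, had the highest level per kilobase of exon. It had 13882, 12326 and 15428 normalized counts in the control libraries and 19944, 19739 and 20739 in Taf4asKO. The Taf4asKO libraries lay close together and all above control, at a log2 fold change of 0.54 ± 0.11 (adjusted p = 0.0114). The call was lost without Taf4asKO replicate 2 (adjusted p = 0.0581) or replicate 3 (0.0646), at nearly the same fold change (0.56 and 0.52).

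Txnrd1 (ENSMUSG00000020250, chr10:82833951-82897712, plus strand), the cytosolic thioredoxin reductase, had 1886, 1381 and 1477 in control and 1928, 1320 and 1240 in Taf4asKO. The groups covered much the same range, and the difference of -0.10 had a 95% interval from -0.48 to 0.29 (adjusted p = 0.766). Srxn1 (ENSMUSG00000032802, chr2:152105524-152111376, plus strand), the sulfiredoxin that repairs overoxidized peroxiredoxins, had 277, 211 and 211 in control and 522, 269 and 214 in Taf4asKO. A single Taf4asKO library stood high and the lowest lay within the control range. The difference was 0.43 ± 0.28 with a 95% interval from -0.20 to 1.05 (adjusted p = 0.348), and 0.05 without Taf4asKO replicate 1. In both genes the libraries numbered 1 were the highest of each group, and with both left out the difference of Srxn1 was 0.18 and the 4 calls fell to 1, Gclc.

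The ratio of Srxn1 to Txnrd1 was 0.147, 0.153 and 0.143 in control and 0.271, 0.204 and 0.173 in Taf4asKO. It was nearly constant over the control libraries and higher in each Taf4asKO library.

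Levels were compared between genes as mean normalized counts per kilobase of exon. In control MuSCs the order was Gpx3 (7655), Nfe2l2 (230), Txnrd1 (223), Gclc (88.0), Srxn1 (82.6), Keap1 (53.8), Hmox1 (28.9), Gclm (26.9) and Nqo1 (12.7). The ranges over libraries overlapped between Nfe2l2 and Txnrd1, between Gclc and Srxn1, and between Hmox1 and Gclm. In Taf4asKO MuSCs the order was Gpx3 (11109), Nfe2l2 (335), Txnrd1 (211), Gclc (183), Srxn1 (119), Keap1 (57.5), Hmox1 (50.6), Nqo1 (27.7) and Gclm (25.2). Here the neighbours with overlapping ranges were Txnrd1 and Gclc, Gclc and Srxn1, Keap1 and Hmox1, and Nqo1 and Gclm. The first 7 places were thus held in the same order, while Nqo1 stood below Gclm in control and at its level in Taf4asKO.

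Markers of other cells moved with the groups. Of the Schwann cell markers, 7 of 10 were higher. The sums of endothelial markers (969 to 1508 against 1613 to 2206, 0 of 10 called), mural markers (37187 to 41309 against 42144 to 42507, 2 of 10 higher) and macrophage and leukocyte markers (451 to 570 against 694 to 965, 0 of 6 called) were also higher without overlap. When the marker of highest mean level was left out of each sum, a choice made after seeing the data, the macrophage and leukocyte sums without Lyz2 (153 to 357 against 226 to 236) and the endothelial sums without Tek (277 to 704 against 690 to 1266) overlapped, and the mural and Schwann cell sums did not. The log2 fold changes were above 0 in 10 of 10 endothelial markers (median 0.89), 10 of 10 Schwann cell markers (0.86), 7 of 10 mural markers (0.54) and 3 of 6 macrophage and leukocyte markers (0.13). In the last list 7 of 13 markers, Ptprc and Adgre1 among them, had no row. Sums of fibro-adipogenic (58670 to 99743 against 44489 to 77539), tenocyte (2181 to 15097 against 7600 to 17377), myofibre (2385 to 6556 against 2947 to 3588) and erythroid or hepatic genes (73 to 233 against 98 to 175) overlapped. Of the fibro-adipogenic markers 0 of 12 were called higher and 2 lower, but 10 were above 0 and the median log2 fold change was 0.85. Col3a1, among the 2 lower, was at 46225, 47112 and 47700 in the control and 13082, 17573 and 16995 in the Taf4asKO libraries. The tenocyte markers were above 0 in 8 of 8, with a median of 1.11 and 0 called, and of the myofibre markers 0 of 12 were higher and Atp2a1 was lower (-1.58, adjusted p = 0.00633). With the replicate block, 8 of 12 fibro-adipogenic markers were higher and 2 lower, and 6 of 8 tenocyte, 6 of 10 mural and 4 of 10 endothelial markers were higher, as was Lyz2 (adjusted p = 0.00396) of the macrophage and leukocyte markers. No marker with a row was at 0 in any library. Of the MuSC markers, 2 of 10 were higher and 4 lower, and with the replicate block 2 were higher and 5 lower. Their sums without Pax7 (36275 to 38076 in control against 34403 to 36426 in Taf4asKO) overlapped. By the study's own reanalysis of sorted cells, their purity was incomplete. The part of cells other than MuSCs in the values of Gclc, Nqo1, Gpx3, Nfe2l2 and the listed genes was not tested.

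The wider antioxidant system was read from 8 lists of 166 genes in all, of which 144 could be tested. Of these, 18 rose and 5 fell, or 12.5% and 3.47%, beside 5.93% and 6.71% of all genes. Their median log2 fold change was 0.15, and 93 were above 0. The lists hold none of the 10 genes above. They share genes with each other and are described by counts only.

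**Figure D3:**
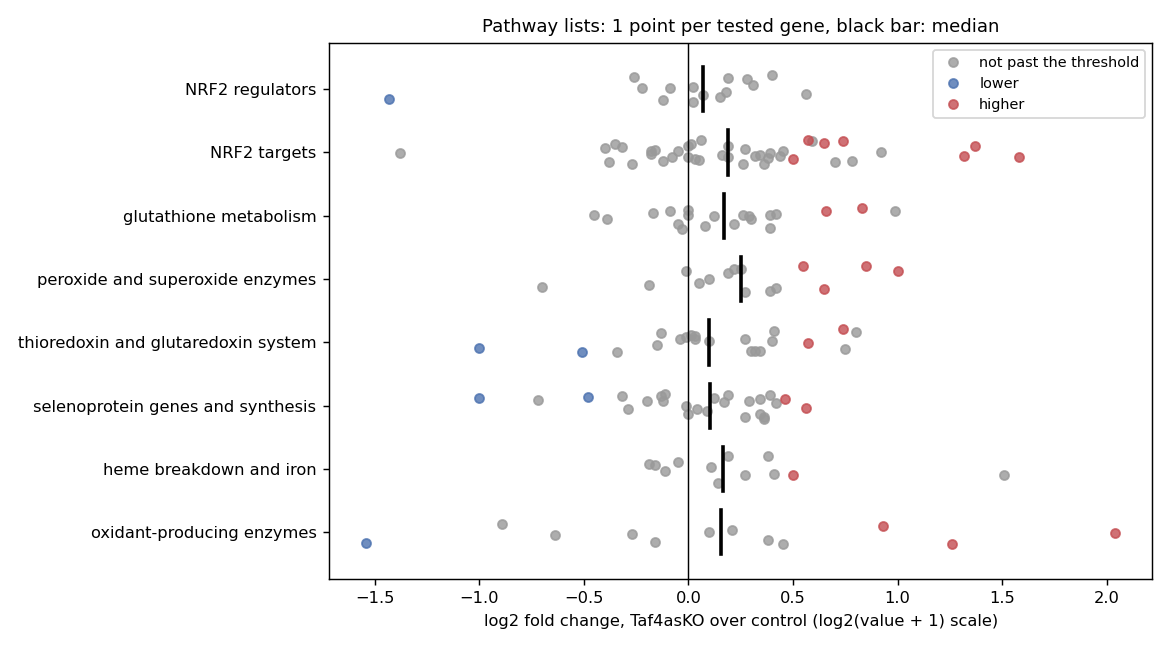
Log2 fold change of Taf4asKO over control (x axis) of each tested gene in the 8 lists (rows), with red points for genes past the threshold and higher, blue for lower and grey for the rest, and a black bar at the median. All medians lie between 0.07 and 0.25, and called genes in the list of NRF2 targets lie only on the right.

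Of 15 tested regulators of NRF2, 0 rose and 1 fell, with a median of 0.07. Brca1, a DNA repair gene whose protein also binds NRF2, fell from 96, 99 and 49 normalized counts to 24, 37 and 25 (-1.43 ± 0.32, adjusted p = 0.0172), a call lost without control replicate 1 (adjusted p = 0.0505) or Taf4asKO replicate 1 (0.0689) or 3 (0.0736). The most abundant regulators not past the threshold were Sqstm1, the autophagy receptor that sequesters KEAP1, at 0.40 (adjusted p = 0.14), and the NRF2 partner Mafk at 0.18 (adjusted p = 0.631). With the replicate block Sqstm1 passed the threshold (adjusted p = 0.0223), and the calls in this list were 1 higher and 1 lower. Sqstm1 had 4011, 3080 and 3695 in control and 6189, 4272 and 3985 in Taf4asKO, where the libraries numbered 1 were again the highest of each group.

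Of 41 tested further targets of NRF2, 7 rose and 0 fell, with a median of 0.19. The largest rises were those of Mgst1, Gstm1 and Gstm2, which encode glutathione transferases, enzymes that attach glutathione to electrophiles. Mgst1, the microsomal form, had 62, 109 and 95 normalized counts in the control libraries and 247, 269 and 264 in Taf4asKO (1.58 ± 0.21, adjusted p = 0.0014). Gstm1 had 1502, 1569 and 1968 against 4231, 4184 and 4532 (1.37 ± 0.11, adjusted p = 0.000132). Gstm2, a close copy of it, had 176, 235 and 319 against 535, 633 and 614 (1.32 ± 0.19, adjusted p = 0.00249). In all 3 genes the groups stood well apart, and each call held in all 18 alternatives. Reads that map to several places were removed, so the split between copies of the Gstm family is uncertain. Of 7 tested transferases in the list these 3 rose, and the other 4 were Gsta4 at -0.12 (adjusted p = 0.846), Gstp2 at 0.34 (0.361), Gstm5 at 0.44 (0.0799) and Gstp1 at 0.59 (0.0638). With the replicate block Gstm5 (adjusted p = 0.0381) and Gstp1 (0.0475) passed. Tkt, transketolase of the pentose phosphate pathway, rose by 0.74 ± 0.20 (adjusted p = 0.0371), and this call was lost without control replicate 1 or any 1 Taf4asKO library (adjusted p from 0.0639 to 0.15). The other 3 were Prdx1, Txn1 and Ftl1, described with their own lists. The most abundant targets not past the threshold were Fth1, ferritin heavy chain, at 0.19 (adjusted p = 0.536), and Ephx1, an epoxide hydrolase, at 0.32 (adjusted p = 0.117). Fth1 passed without control replicate 2 (0.42, adjusted p = 0.0201), a fit in which the list had 13 calls and all genes 3096. It had 4 calls without control replicate 1, Taf4asKO replicate 2 or Taf4asKO replicate 3, where all genes had 1710, 980 and 956.

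In glutathione metabolism, 2 of 20 tested genes rose and 0 fell, with a median of 0.17. Ggct, which degrades gamma-glutamyl peptides, rose by 0.83 ± 0.21 (adjusted p = 0.0274), and Cbs, cystathionine beta-synthase of the pathway that makes cysteine from methionine, by 0.66 ± 0.14 (adjusted p = 0.0128). Ggct lost its call without control replicate 3 or any 1 Taf4asKO library (adjusted p from 0.0606 to 0.111), and Cbs without Taf4asKO replicate 1 (0.0612) or 3 (0.0645). The amino acid carrier subunit Slc3a2, which partners the cystine importer, had 1297, 1347 and 1390 in control and 1394, 1295 and 1338 in Taf4asKO, a difference with a 95% interval from -0.20 to 0.20 (adjusted p = 0.99). Slc7a8, another partner of Slc3a2, was at 0.26 ± 0.32 (adjusted p = 0.641). With the replicate block the list held 3 higher and 1 lower. Those gained were Gpx4, the peroxidase of membrane lipids, at 0.42 (adjusted p = 0.0185 with the block and 0.0573 without), and Lap3, a leucine aminopeptidase, at -0.45 (adjusted p = 0.0317 and 0.0783). Both were named after their values were seen.

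Of 15 tested peroxide and superoxide enzymes, 4 rose and 0 fell, with a median of 0.25. Sod3, the extracellular superoxide dismutase, had 538, 830 and 850 normalized counts in the control libraries and 1197, 1479 and 1712 in Taf4asKO (1.0 ± 0.19, adjusted p = 0.00773). Prdx5 had 198, 256 and 236 against 418, 406 and 414 (0.85 ± 0.13, adjusted p = 0.00302). Prdx1 had 855, 969 and 813 against 1381, 1390 and 1363 (0.65 ± 0.10, adjusted p = 0.00299). Both encode peroxiredoxins, thiol enzymes that reduce hydrogen peroxide. Sod1, the cytosolic superoxide dismutase, had 732, 896 and 870 against 1220, 1207 and 1225 (0.55 ± 0.11, adjusted p = 0.00842). The Taf4asKO libraries of Prdx5, Prdx1 and Sod1 lay within a narrow range, above all controls. These 4 calls held with any 1 library left out. The most abundant members not past the threshold were Prdx6 at 0.19 (adjusted p = 0.325) and Prdx2 at -0.19 (adjusted p = 0.348). With the replicate block Gpx4 passed here too, as did Gpx7, a peroxidase of the endoplasmic reticulum named after its values were seen, at -0.70 (adjusted p = 0.0282, and 0.0538 without).

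Among 21 thioredoxin and glutaredoxin genes, 2 rose and 2 fell, with a median of 0.10. Txnrd3, a thioredoxin reductase best known from testis, had 309, 302 and 342 normalized counts in the control libraries and 151, 170 and 155 in Taf4asKO, with no overlap (-1.0 ± 0.13, adjusted p = 0.00135). It thus fell while its paralogue Txnrd1 did not pass the threshold; the difference between the 2 genes was not tested. Txndc5, a disulfide isomerase of the endoplasmic reticulum, fell by 0.51 ± 0.10 on the log2 scale (adjusted p = 0.0101). Txndc12, a further thioredoxin-fold protein of that compartment, rose by 0.74 ± 0.14 (adjusted p = 0.00896, and 0.0559 without Taf4asKO replicate 2). Txn1, thioredoxin itself, had 237, 265 and 265 against 464, 328 and 358 (0.57 ± 0.15, adjusted p = 0.033), a call that ended when any 1 library other than control replicate 2 was left out (adjusted p from 0.0552 to 0.113). Txnip, the inhibitor of thioredoxin, had 1121, 2310 and 2959 in control and 1996, 4666 and 4384 in Taf4asKO. Its libraries numbered 1 were the lowest of each group, and the difference of 0.80 ± 0.37 passed the threshold only with the replicate block (adjusted p = 0.000365, and 0.185 without). Sesn1, a sestrin, was at 0.10 (adjusted p = 0.686).

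Gpx3 and Txnrd1 are selenoproteins, made by reading a stop codon as selenocysteine. In the list of other selenoprotein genes and their synthesis, 2 of 26 rose and 2 fell, with a median of 0.10. Secisbp2, which binds the selenocysteine insertion element of the message, had 413, 440 and 424 normalized counts in the control libraries and 266, 320 and 332 in Taf4asKO (-0.48 ± 0.12, adjusted p = 0.0309). Its relative Secisbp2l had 1432, 1632 and 1456 against 2165, 2249 and 2263 (0.56 ± 0.09, adjusted p = 0.00414). The paralogues thus moved in opposite directions, each without overlap between the groups. Selenot, of the endoplasmic reticulum, rose by 0.46 ± 0.13 at an adjusted p of 0.0499, and Txnrd3 was the other gene that fell. The calls of Secisbp2 and Selenot ended when any 1 library other than control replicate 2 was left out (adjusted p from 0.059 to 0.106 and from 0.113 to 0.158), while those of Secisbp2l and Txnrd3 held. The abundant Selenop, a selenium carrier, was at 0.17 (adjusted p = 0.378), and Selenof at 0.36 (adjusted p = 0.129, and 0.00514 without control replicate 2). The list had 8 calls without control replicate 2, where all genes past the threshold numbered 3096 against 2347 with all libraries, and 2 calls without any 1 of the others, where they numbered 956 to 2171.

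In heme breakdown and iron handling, 1 of 12 tested genes rose and 0 fell, with a median of 0.16. Ftl1, ferritin light chain, had 281, 287 and 298 normalized counts in the control libraries and 481, 399 and 354 in Taf4asKO (0.50 ± 0.14, adjusted p = 0.0379), and lost its call when any 1 library other than control replicate 2 was left out (adjusted p from 0.0549 to 0.134) and with total-count scaling (0.051). Fth1, its partner in the ferritin shell, had 4609, 7901 and 5013 against 7050, 6148 and 6201, and these overlapped. Fech, which inserts iron to make heme, was at 0.38 ± 0.11 (adjusted p = 0.0544, and 0.0187 without control replicate 2). Ferritin genes have many processed copies in the genome, so their uniquely mapped reads are an uncertain part of the whole.

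Of 12 tested enzymes that produce oxidants, 3 were higher, 1 was lower and 8 did not pass the threshold, with a median of 0.15. Xdh, xanthine dehydrogenase, showed the largest rise of all the lists, from 51, 74 and 97 normalized counts to 290, 310 and 292 (2.04 ± 0.22, adjusted p = 0.000529). Nox4, an NADPH oxidase that releases hydrogen peroxide, had 9, 16 and 16 against 28, 28 and 46 (1.26 ± 0.36, adjusted p = 0.0438), and only leaving out control replicate 2 kept this call (adjusted p from 0.0583 to 0.196 without each of the others). Maob, the monoamine oxidase B of mitochondria, had 240, 306 and 263 against 502, 526 and 511 (0.93 ± 0.12, adjusted p = 0.00153). Nos1, the neuronal nitric oxide synthase, fell from 409, 410 and 566 to 135, 158 and 178 (-1.54 ± 0.17, adjusted p = 0.000572). None of these 4 showed overlap between the groups, and the calls of Xdh, Maob and Nos1 held with any 1 library left out. Not past the threshold were Maoa at -0.16 (adjusted p = 0.37) and Cyba, a subunit of NADPH oxidases, at 0.38 (adjusted p = 0.216).

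**Figure D4:**
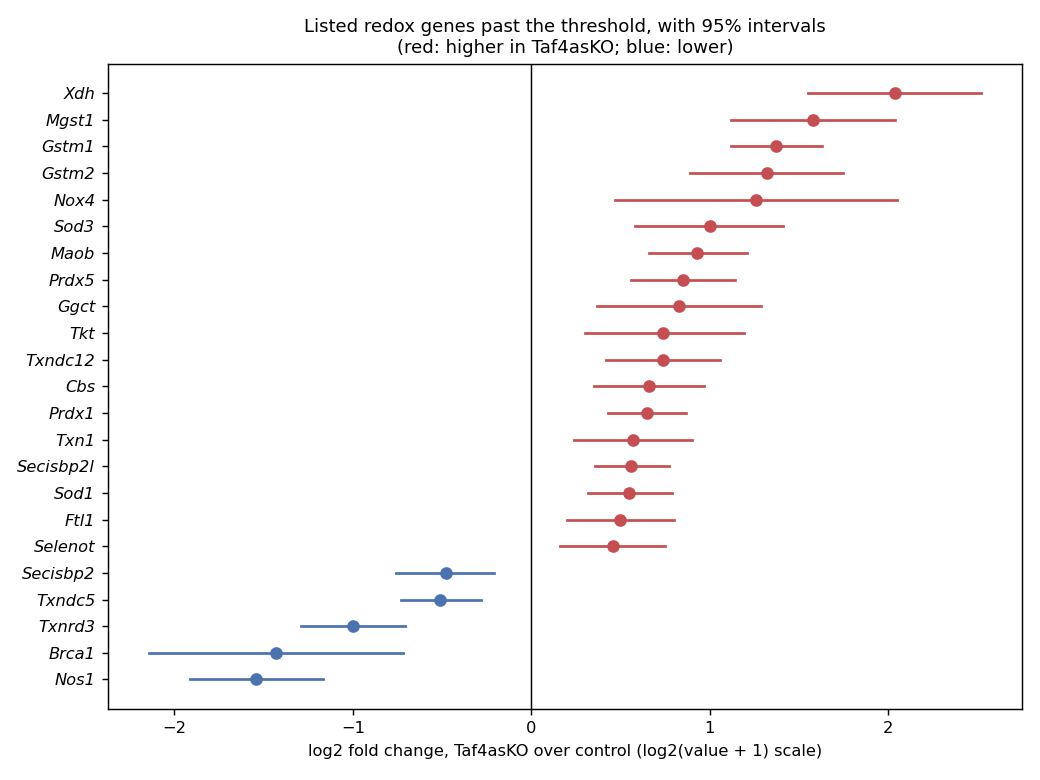
Log2 fold change of Taf4asKO over control (x axis) with the limma 95% interval for the 23 listed genes past the threshold, 18 higher in red and 5 lower in blue. Xdh, Mgst1 and Gstm1 show the highest values and Nos1 and Brca1 the lowest.

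Over the 6 libraries, the genes whose log2 values were most like those of a called gene were named from those with a mean of at least 50. For Gpx3 these were Stat6 (Pearson r = 0.9994), Rarres2 (0.9969) and Cxcl16 (0.9964). For Gclc they were Spag9 (0.9940), Atp2b1 (0.9928) and Phlda3 (0.9921). For Nfe2l2 they were Rap1a (0.9972), Rab6a (0.9965) and S100a10 (0.9962), and for Nqo1 they included Dhdh (0.9923) and Invs (0.9919). All 6 points share the split into groups, so a gene that is higher in Taf4asKO with little spread within groups tends to score highly. For each called gene, 100 to 275 genes reached an r of 0.95. Of the genes named here, S100a10, Atp2b1, Phlda3, Stat6 and Rarres2 were past the threshold, all higher, and Rap1a passed it with the replicate block (adjusted p = 0.0385, and 0.0602 without). S100a10 lost its call without control replicate 3 (0.0507) or Taf4asKO replicate 1 (0.0733) or 2 (0.0776), and Stat6 without Taf4asKO replicate 2 (0.0653) or 3 (0.071). Among those whose difference was small, Invs had 312, 319 and 340 against 355, 341 and 360.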

How the data were processed

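RNA was taken from FACS-sorted MuSCs and made into stranded total RNA libraries with a low-input kit, 3 control and 3 Taf4asKO. By the labels and methods, single-end reads were trimmed (Trimmomatic 0.39) and aligned to mm10 (STAR 2.6.0c) by the authors, who removed reads that mapped to several places, counted reads over exons with featureCounts 1.6.0 without reads that overlapped several genes, and normalized with DESeq2 1.14.1. Whether counting used the strand is not given in the sources used here. The deposited values are a score, not raw counts: the authors scaled each library by its size factor and rounded the result, as inferred from whole numbers that some columns never use. Factors estimated from that spacing were 0.858 to 1.333, and errors were at most 0.083% in 6 simulated libraries of 22081 genes. The table had 0 value columns without a sample.

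Because such values are scaled and rounded, limma 3.58.1 (R 4.3.3) was chosen over a count test. It was run on log2(value + 1) of genes with a mean of 5 or more, with a variance trend and no covariate. The fit was first checked on simulated data. Fold changes on this scale understate those of low genes. The limits were those of the study. Within-group pairs of libraries differed beyond counting error (chi-square over its degrees of freedom, 4.16 to 36.9), which does not show that they come from separate mice. Each was counted as a sample, since the study calls its replicates biological. The labels give both groups the numbers 1 to 3 without saying what equal numbers share. Deviations from the group means correlated at 0.235, 0.126 and 0.15 for equal numbers and at -0.149 to 0.014 for unequal ones. Deviations cancel out within a group, so the values for unequal numbers are not separate evidence. On these weak correlations alone, the numbers were taken to pair the libraries, and a fit with the number as a block was made beside the other.

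The 10 genes, the 8 pathway lists and the marker lists were chosen with earlier results of these data known. Named genes were those 10, Taf4, from each list up to 4 rises and 4 falls past the threshold by size and the 2 most abundant genes not past it, and for each called gene the 3 most correlated genes with a mean of 50 or more, without Gm and Rik names; 1 gene chosen by this rule is not reported here. Genes named outside this rule are the markers, overlapping genes, Gpx4, Gpx7, Lap3, Gsta4, Gstm5, Gstp1 and Gstp2. Positions are those of the table, and exon lengths and overlaps come from GENCODE M21, which held 99.8% of the identifiers. It placed 75.6% of them at the same position as the table. Alternatives were the block, 3 other scalings, pseudocounts of 0.1 and 5, filters of none and 20, robust shrinkage, a fold limit of 2, an adjusted p limit of 0.01 and leaving out each library. Leaving out both libraries numbered 1, and leaving the highest marker out of each marker sum, were added after seeing the data. Promoters came from RefSeq, and figures were drawn with matplotlib 3.10.9.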

Additional observations from a re-analysis of the deposited data

How the results depend on the processing

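Under 18 alternatives, Gclc kept its call and direction in all, Nfe2l2 and Gpx3 in 13 each and Nqo1 in 8, and all 4 stayed above 0. When 1 library was left out, the members past the threshold (all higher) numbered 1 to 4, against 4 with all libraries. Over these fits, all genes past the threshold numbered 956 to 3096 (350 to 1607 higher, 595 to 1489 lower), NRF2 regulators 0 to 2, NRF2 targets 4 to 13, glutathione genes 0 to 3, peroxide and superoxide enzymes 4 to 5, thioredoxin and glutaredoxin genes 2 to 5, selenoprotein genes 2 to 8, heme and iron genes 0 to 3 and oxidant-producing enzymes 3 to 4. Without both libraries numbered 1, which leaves 2 per group, 456 genes passed (168 higher, 288 lower), with 1 member, 0 regulators, 3 targets, 0 glutathione genes, 1 peroxide enzyme, 1 thioredoxin gene, 1 selenoprotein gene and 0 heme and iron genes. A fold limit of 2 left 850 genes (330 genes higher, 520 genes lower), 2 members, 3 targets and 0 glutathione, peroxide, thioredoxin, selenoprotein or heme genes. An adjusted p limit of 0.01 left 876 genes (331 genes higher, 545 genes lower), 1 member, 0 regulators, 4 targets, 0 glutathione genes, 2 thioredoxin genes, 2 selenoprotein genes and 0 heme genes. Total-count scaling left 0 heme genes. The paired fit with the replicate block raised genes called higher to 1688, regulators past the threshold to 2 and glutathione genes to 4. Among the named genes it changed the calls of Sqstm1, Txnip, Rap1a, Gpx4, Gpx7, Lap3, Gstm5, Gstp1 and the marker Lyz2, given above with their values, and no other.

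Direction reversed only in genes that were not called. When 1 library was left out, the log2 fold change of Gclm lay between -0.158 and 0.0159 (reversed without control replicate 2), of Txnrd1 between -0.292 and 0.0385 (control replicate 1, and 0.0259 without Taf4asKO replicate 3), of Mafk between -0.0984 and 0.338 (control replicate 2), of Slc7a8 between -0.168 and 0.625 (control replicate 2), of Slc3a2 between -0.0301 and 0.023 (Taf4asKO replicate 2, and 0.0216 without control replicate 3) and of Sesn1 between -0.000708 and 0.264 (Taf4asKO replicate 3). Fth1 moved to -0.0275 without the libraries numbered 1. Of 918 further values of 51 other named genes, 805 kept direction and side of the threshold, 99 lost and 8 gained a call, and 6 reversed. The scalings shifted the median of all genes to at most -0.03, under upper-quartile scaling. The causes of these changes were not tested. Nqo1 had the lowest read estimate of the members, 12 in its lowest library.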
